A study of Homo sapiens with 22 samples.

Results

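The mouse growth factors described here are 10 secreted ligands of receptor tyrosine kinases, Hgf, Igf1, Igf2, Nrg1, Fgf2, Fgf7, Fgf10, Gas6, Areg and Pdgfc. They were listed as stromal ligands that may let tumour cells signal past an inhibited ALK kinase, which was not tested here. They were taken by gene symbol from a table of 54532 mouse genes, in which each symbol occurred once. The tissue was xenograft tumour grown from H3122, a human lung adenocarcinoma cell line driven by an ALK fusion, in mouse hosts, and its reads were tabulated separately for human and for mouse genes. The series holds 22 samples in 6 groups: hHGF-NSG hosts left therapy-naive, given alectinib for 2 weeks or given it for 6 weeks, and NSG hosts in the same 3 states. NSG mice lack functional T, B and natural killer cells, and the title of the series calls the hHGF-NSG hosts humanized for HGF. Alectinib is an ALK inhibitor. The labels do not say how the human gene was introduced, whether the mouse Hgf alleles were kept, or give the age and sex of the hosts, and they do not say that samples of a group came from separate animals, so every p-value here measures the spread between these samples only. The cell type label, ALK-positive lung cancer, went with the human reads: a list of 7 epithelial and H3122 markers (EPCAM, KRT8, KRT18, KRT19, CDH1, NKX2-1 and ALK) summed to between 1154 and 3729 FPKM in every group's libraries, and none of the 7 was at 0 in all libraries of any group.

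Receptor tyrosine kinases are cell surface proteins that dimerise when a ligand binds and then feed the RAS-MAPK and PI3K-AKT pathways. Many of their ligands are made by fibroblasts and other mesenchymal cells and act on neighbouring epithelium. HGF binds MET, the insulin-like growth factors IGF1 and IGF2 bind IGF1R, neuregulin 1 binds ERBB3 and ERBB4, amphiregulin (AREG) binds EGFR, FGF7 and FGF10 bind the epithelial form of FGFR2, FGF2 binds several FGF receptors, GAS6 binds TYRO3, AXL and MERTK, and PDGF-C binds mainly PDGFRA.

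The mouse table was read for 20 libraries, with 3, 4 and 3 libraries at naive, 2 weeks and 6 weeks in each host. Replicate 2 of the naive NSG tumours and replicate 4 of the 6-week NSG tumours were not analysed on the mouse side, while the human table was read for all 22. The mouse libraries held 895826 to 5766509 reads and the human ones 10688632 to 19065656. Mouse reads made up a median of 8.93%, 12.7% and 28.6% of a library's reads at naive, 2 weeks and 6 weeks in hHGF-NSG hosts, and of 6.32%, 15.3% and 18.7% in NSG hosts, so the low ligands were counted least deeply in naive tumours. A library labelled NSG naive replicate 1 went against its label. It held 43 reads of human HGF, while the other 11 NSG libraries held 0 to 6 and the hHGF-NSG libraries 13 to 79. It is called the library labelled NSG naive replicate 1 below, and results that rest on it are given with and without it.

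FPKM values are per gene length and can be compared between genes. Over the 20 libraries the ligands differed widely in level. Gas6 was highest, at a mean of 313 FPKM with a range of 220.4 to 427, and no other ligand reached its lowest value. Igf1 followed at 30.3 FPKM (12.0 to 46.2), then Pdgfc at 10.3 FPKM (7.65 to 16.2) and Fgf2 at 5.74 FPKM (2.68 to 8.19). Fgf7, Nrg1 and Fgf10 averaged 3.52, 3.21 and 2.91 FPKM, and their ranges lay across each other. Hgf was the lowest ligand found in every library, at 1.55 FPKM (0.123 to 3.93), which stands for 1 to 52 reads per library. Igf2 and Areg were at or near 0 in every group.

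**Figure D1:**
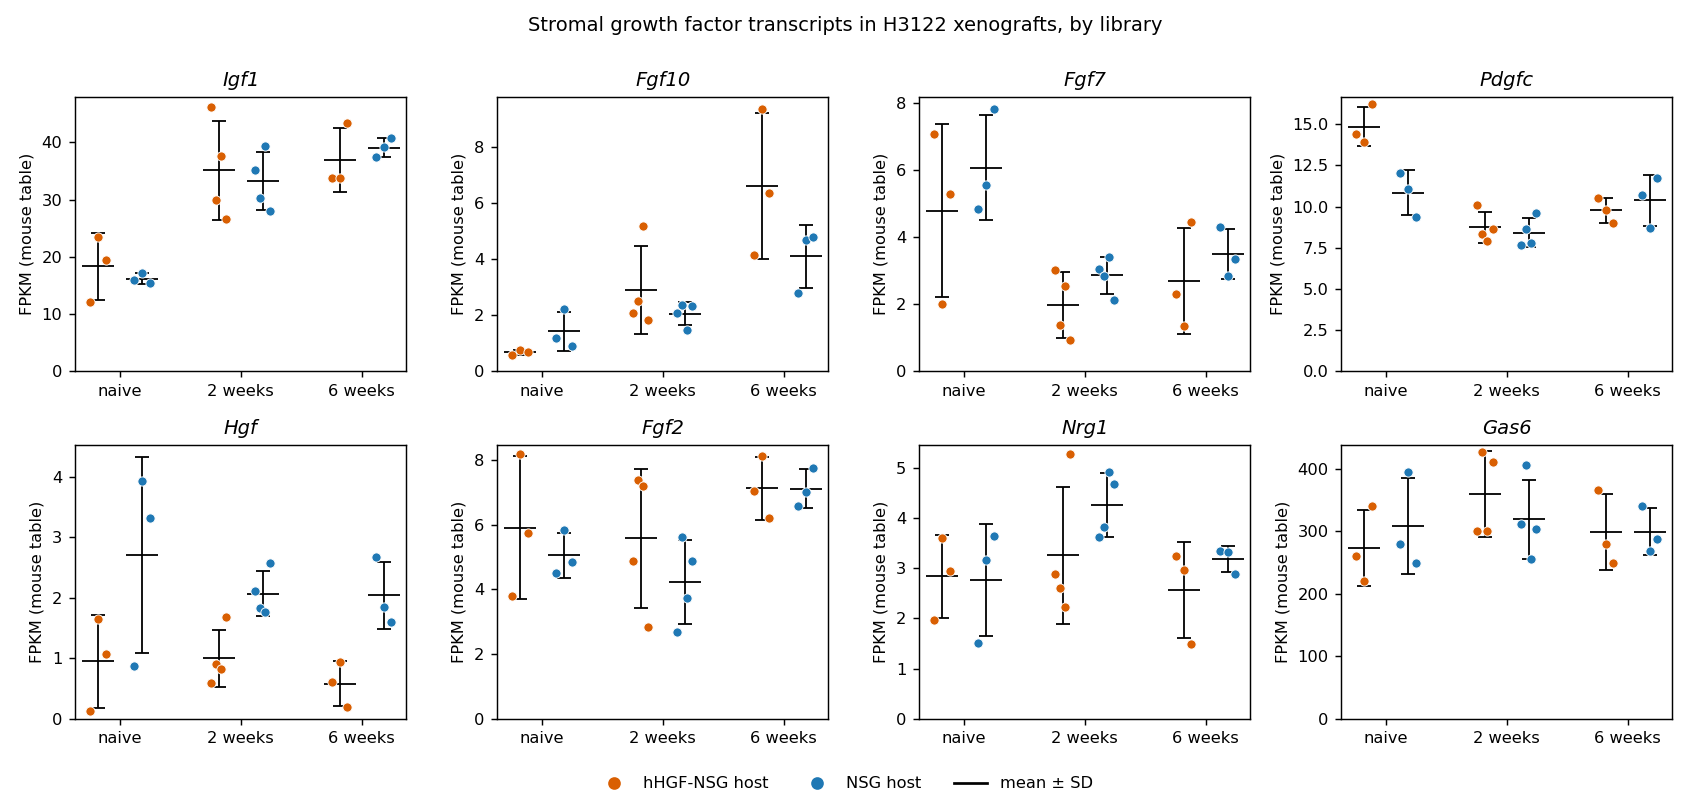
FPKM of each mouse growth factor (y axis, linear from 0) at naive, 2 weeks and 6 weeks of alectinib (x axis). Points are libraries, hHGF-NSG left of NSG in each state, and bars are the mean ± SD of 3 or 4 libraries. Igf1 sits higher in treated tumours in both hosts. Fgf10 sits higher in hHGF-NSG hosts at both times and in NSG hosts at 6 weeks, while its NSG values at 2 weeks overlap the naive ones. Pdgfc is highest in the 3 hHGF-NSG naive libraries, and Gas6 stays between 220.4 and 427 FPKM.

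The comparisons below use limma on log2(FPKM + 1), which understates the fold change of genes near or below 1 FPKM, with Benjamini-Hochberg adjustment over 14287 mouse genes and a gene was called at an adjusted p below 0.05. Genes at 1 FPKM or more in at least 3 libraries were tested. Of the 10 ligands 8 passed and Igf2 and Areg did not. Because these are bulk samples, fewer cells of a type and less RNA per cell cannot be told apart.

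The host comparison asked whether the stroma of hHGF-NSG mice differed from that of NSG mice. Mouse Hgf was lower in hHGF-NSG hosts when the 3 states were averaged, and it was the 1 ligand of 8 called there, while 0.945% of all genes tested were called. In the separate states 0 of 8 ligands were called by limma, against 0.042% of genes in the naive comparison, 0.371% in the 2-week and 0.252% in the 6-week one (0.07% higher and 0.182% lower). At an unadjusted p below 0.05, 1437, 1122 and 707 genes passed in these 3 comparisons.

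Hgf (ENSMUSG00000028864, mm10 chromosome 5, 16553495 to 16620152, plus strand, protein coding) encodes hepatocyte growth factor. In naive tumours it had 0.123, 1.65 and 1.06 FPKM in hHGF-NSG hosts, against 0.872 FPKM in the library labelled NSG naive replicate 1 and 3.93 and 3.31 FPKM in NSG naive replicates 3 and 4. After 2 weeks it had 0.596, 0.906, 0.818 and 1.67 FPKM in hHGF-NSG hosts and 2.11, 1.82, 1.76 and 2.57 FPKM in NSG hosts. After 6 weeks it had 0.606, 0.931 and 0.191 FPKM in hHGF-NSG hosts and 2.66, 1.84 and 1.60 FPKM in NSG hosts. At 2 and at 6 weeks every hHGF-NSG library lay below every NSG library, and in naive tumours the groups overlapped only through the library labelled NSG naive replicate 1. These levels rest on 1 to 38 reads per hHGF-NSG library and 14 to 52 per NSG library.

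Averaged over the 3 states, Hgf was at 0.839 FPKM in hHGF-NSG hosts and 2.27 FPKM in NSG hosts, a difference of -0.83 ± 0.19 on the log2(FPKM + 1) scale (SE, 10 libraries each, limma adjusted p = 0.0433). Taken singly, naive tumours gave -0.90 ± 0.35, the 2-week groups -0.64 ± 0.30 and the 6-week groups -0.96 ± 0.35, with limma adjusted p-values of 0.376, 0.633 and 0.790. The sign was the same in all 3, and the averaged call stood close to the threshold. With the library labelled NSG naive replicate 1 left out, the averaged difference was -0.98 (limma adjusted p = 0.00296) and the naive one -1.33 (limma adjusted p = 0.0647). That library was singled out after its human HGF reads were seen. It also had the lowest mouse Hgf of the NSG libraries, so leaving it out could only widen the difference. Leaving out any of 17 of the 20 libraries took the averaged adjusted p above the threshold, at differences of -0.71 to -0.89. Over all alternatives run it ranged over 0.00296 to 0.113. The call was kept without the library labelled NSG naive replicate 1 and, among hHGF-NSG libraries, without naive replicate 2 or replicate 4 of the 2-week group. A pseudocount of 0.1 gave -1.50 (adjusted p = 0.0747) and the replicate block gave -0.80 (adjusted p = 0.0645). Testing without the filter gave an adjusted p of 0.0951. The call was kept by limma voom on recovered reads. It was also kept by median-ratio rescaling, but the factors were 1.0057 to 1.0244 over the mouse libraries. That alternative left the values nearly unchanged and could hardly have moved the call.

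Set side by side in the same libraries, human HGF in the human table ran the other way. It was at 0.0926 to 0.549 FPKM in the 10 hHGF-NSG libraries, at 0.320 FPKM in the library labelled NSG naive replicate 1 and at 0 to 0.0468 FPKM in the other 11 NSG libraries. Of the reads assigned to either species' gene, human HGF took 46.9% to 92.9% in each hHGF-NSG library. In the library labelled NSG naive replicate 1 it took 75.4% (43 human and 14 mouse reads, 95% Wilson interval 62.9% to 84.8%), and in the other NSG libraries with mouse values at most 14.6%. The intervals cover counting error only. The mouse reads and the human reads were scaled within their own tables, so these shares compare read counts and not levels per cell.

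**Figure D2:**
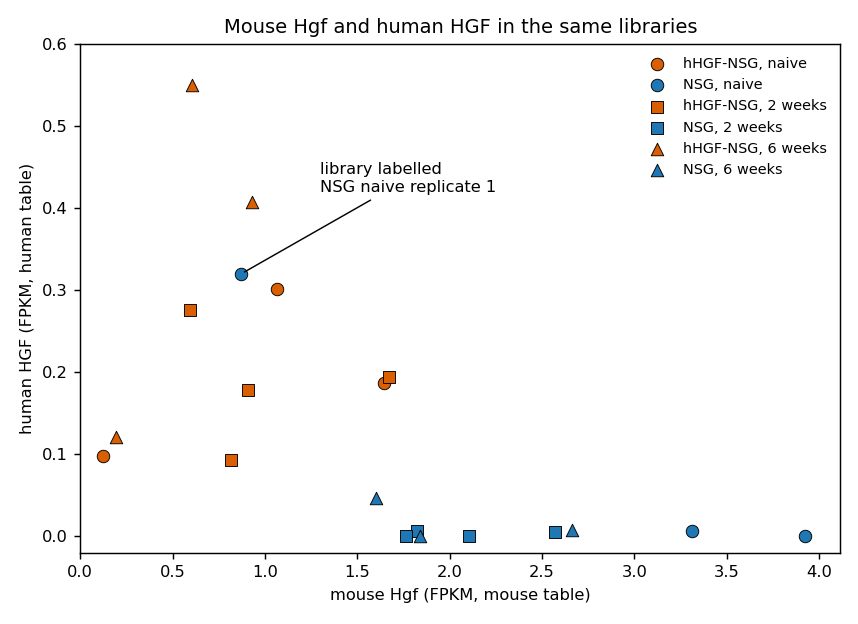
Mouse Hgf (x axis, FPKM in the mouse table) against human HGF (y axis, FPKM in the human table) in the 20 libraries read in both tables, coloured by host and shaped by state. The hHGF-NSG libraries lie at 0.0926 FPKM or more of human HGF, 9 NSG libraries at 0.0468 FPKM or less, and the library labelled NSG naive replicate 1 lies at 0.872 and 0.320 FPKM.

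A second transcript of the Hgf locus differed between hosts in the opposite direction to Hgf. Gm43489 (ENSMUSG00000106339, mm10 chromosome 5, 16572951 to 16573943, plus strand) is a predicted gene of the annotation class TEC that lies inside the Hgf gene on the same strand. It was singled out after its values were seen, in a listing of genes that overlap the ligands, and is given without a test. It had 9.79, 2.98 and 3.85 FPKM in hHGF-NSG naive tumours, against 4.51 FPKM in the library labelled NSG naive replicate 1 and 0 in NSG naive replicates 3 and 4. After 2 weeks it had 6.16, 4.03, 4.88 and 3.02 FPKM in hHGF-NSG hosts and 2.18, 0.775, 0.336 and 0 FPKM in NSG hosts. After 6 weeks it had 6.68, 3.01 and 3.22 FPKM in hHGF-NSG hosts and 0, 1.45 and 0.994 FPKM in NSG hosts. Every hHGF-NSG library lay above every NSG library except the library labelled NSG naive replicate 1, on 5 to 32 reads in hHGF-NSG libraries and 0 to 10 in NSG libraries. Whether reads of this stretch were counted for Gm43489, for Hgf or for both is not given in the sources used here.

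Of the other 7 ligands tested, the averaged host differences ran from -0.39 for Fgf7 to 0.15 for Fgf2, with limma adjusted p-values of 0.478 to 0.998. Fgf7 averaged 3.15 FPKM in hHGF-NSG hosts and 4.14 FPKM in NSG hosts, with a 95% interval of -0.80 to 0.02 on the log2(FPKM + 1) scale. In naive tumours Pdgfc was at 13.9 to 16.2 FPKM in hHGF-NSG hosts and 9.35 to 12.1 FPKM in NSG hosts, and Fgf10 at 0.576 to 0.771 FPKM in hHGF-NSG hosts and 0.892 to 2.21 FPKM in NSG hosts. Neither ligand passed the test, with differences of 0.43 (limma adjusted p = 0.308) for Pdgfc and -0.50 (limma adjusted p = 0.611) for Fgf10. These Fgf10 values rest on 3 to 8 reads per hHGF-NSG library and 5 to 12 per NSG library.

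The treatment comparisons asked how stromal ligands stood in tumours under alectinib. Igf1 and Fgf10 were called higher at both times averaged over hosts, Pdgfc lower at both times and Fgf7 lower at 2 weeks alone. In NSG hosts Fgf10 did not pass at 2 weeks and Pdgfc passed at neither time. Fgf7 passed in neither host taken singly. Hgf, Fgf2, Nrg1 and Gas6 did not pass the test at either time. Averaged over hosts, 2 ligands were higher and 2 lower at 2 weeks, where 17.7% of all genes tested were called, 8.72% higher and 8.98% lower. At 6 weeks 2 were higher and 1 lower, where 30.2% of all genes were called, 16.3% higher and 13.9% lower. Within hHGF-NSG hosts 2 were higher and 1 lower at 2 weeks (3.49% and 3.56% of genes, 7.06% in all), and again 2 higher and 1 lower at 6 weeks (9.67% and 8.12%, 17.8% in all). Within NSG hosts 1 was higher at 2 weeks (3.32% of genes) and 2 at 6 weeks (8.81%), and none was lower (4.48% and 8.59%). In all, 7.8% and 17.4% of genes were called in NSG hosts at the 2 times. The median change of the 8 tested ligands averaged over hosts was 0.10 at 2 weeks and 0.05 at 6 weeks, beside 0.04 and 0.06 for all genes tested.

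Igf1 (ENSMUSG00000020053, mm10 chromosome 10, 87858265 to 87937042, plus strand) encodes insulin-like growth factor 1, the main activator of IGF1R. In hHGF-NSG hosts it had 12.0, 23.5 and 19.4 FPKM in naive tumours, 46.2, 29.9, 37.7 and 26.7 FPKM after 2 weeks and 33.8, 33.7 and 43.4 FPKM after 6 weeks. In NSG hosts it had 15.9 FPKM in the library labelled NSG naive replicate 1, 17.2 and 15.5 FPKM in the other naive tumours, 35.2, 30.4, 39.3 and 28.0 FPKM after 2 weeks and 37.4, 39.1 and 40.7 FPKM after 6 weeks. Every treated library of both hosts lay above every naive library.

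Igf1 rose at 2 weeks to 35.1 ± 8.72 FPKM in hHGF-NSG hosts, against 18.3 ± 5.82 FPKM in naive ones (SD, n = 4 and 3), a change of 0.92 ± 0.20 (SE, limma adjusted p = 0.0102). In NSG hosts it rose to 33.2 ± 5.06 FPKM, against 16.2 ± 0.894 FPKM, a change of 0.98 ± 0.20 (limma adjusted p = 0.00517). At 6 weeks the changes were 1.01 ± 0.21 in hHGF-NSG hosts (limma adjusted p = 0.00290) and 1.22 ± 0.21 in NSG hosts (limma adjusted p = 0.000684). The averaged changes were 0.95 at 2 weeks and 1.12 at 6 weeks, and without the library labelled NSG naive replicate 1 they were 0.94 and 1.11. From 2 to 6 weeks Igf1 did not pass the test, at 0.17 ± 0.14 (limma adjusted p = 0.546). The 2-week call in hHGF-NSG hosts was lost without hHGF-NSG naive replicate 1, at 0.66 (limma adjusted p = 0.0685), and the other Igf1 calls held in every alternative run.

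Igf2 (ENSMUSG00000048583, mm10 chromosome 7, 142650766 to 142666816, minus strand), a mainly fetal insulin-like growth factor in mice, was not detected in 15 of the 20 libraries. It had 2 and 5 reads in hHGF-NSG 2 weeks replicates 2 and 3, 3 and 2 reads in hHGF-NSG 6 weeks replicates 1 and 2 and 1 read in NSG 6 weeks replicate 2, at most 0.302 FPKM. A library with 0 reads allows up to 3, so no difference in Igf2 between hosts or states was detectable at this depth.

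Fgf10 (ENSMUSG00000021732, mm10 chromosome 13, 118669791 to 118792115, plus strand) encodes a mesenchymal growth factor that directs branching of the lung epithelium through FGFR2. In hHGF-NSG hosts it had 0.576, 0.771 and 0.664 FPKM in naive tumours, 2.06, 2.50, 5.19 and 1.83 FPKM after 2 weeks and 4.14, 9.34 and 6.36 FPKM after 6 weeks. In NSG hosts it had 1.17 FPKM in the library labelled NSG naive replicate 1, 2.21 and 0.892 FPKM in the other naive tumours, 2.07, 2.34, 1.45 and 2.34 FPKM after 2 weeks and 2.80, 4.69 and 4.79 FPKM after 6 weeks. In hHGF-NSG hosts the treated libraries lay above all naive ones at both times. In NSG hosts this held at 6 weeks, while the 2-week values overlapped the naive ones. The naive values rest on 3, 6 and 8 reads in hHGF-NSG hosts and on 12, 9 and 5 in NSG hosts, so counting error is large there.

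Fgf10 rose at 6 weeks to 6.61 ± 2.61 FPKM in hHGF-NSG hosts, against 0.671 ± 0.0975 FPKM in naive ones (SD, n = 3 each), a change of 2.13 ± 0.30 (SE, limma adjusted p = 0.000146). In NSG hosts it rose to 4.09 ± 1.12 FPKM, against 1.42 ± 0.694 FPKM, a change of 1.08 ± 0.30 (limma adjusted p = 0.0171). At 2 weeks the change was 1.15 ± 0.28 in hHGF-NSG hosts (limma adjusted p = 0.0189) and 0.36 ± 0.28 in NSG hosts (limma adjusted p = 0.488). Averaged over hosts it was 0.75 at 2 weeks (limma adjusted p = 0.0129) and 1.61 at 6 weeks (limma adjusted p = 1.45e-05), and without the library labelled NSG naive replicate 1 these were 0.72 and 1.58. Fgf10 was the 1 ligand called between the treated times, at 5.35 FPKM at 6 weeks and 2.47 FPKM at 2 weeks, a difference of 0.85 ± 0.20 (limma adjusted p = 0.00901), where 10.5% of all genes tested were called, 6.33% higher and 4.2% lower. The single-host calls were the less stable ones. In hHGF-NSG hosts at 2 weeks the call was lost without hHGF-NSG naive replicate 1 (1.11, adjusted p = 0.0684) and without 2 weeks replicate 3 (0.90, adjusted p = 0.0557). In NSG hosts at 6 weeks it was lost without NSG naive replicate 4 (0.92, adjusted p = 0.0764) and without 6 weeks replicates 2 or 3 (0.99 and 0.98, adjusted p = 0.0649 and 0.0704). On recovered reads, limma voom gave larger changes that missed the threshold in these comparisons, at 1.94 (adjusted p = 0.0783) and 1.63 (adjusted p = 0.0543), and at 1.28 (adjusted p = 0.0515) for 2 weeks averaged over hosts.

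Fgf7 (ENSMUSG00000027208, mm10 chromosome 2, 126034658 to 126091185, plus strand) encodes keratinocyte growth factor, which shares its receptor with FGF10, and it moved the other way. In hHGF-NSG hosts it had 7.08, 2.00 and 5.29 FPKM in naive tumours, 3.01, 1.39, 2.56 and 0.925 FPKM after 2 weeks and 2.30, 1.36 and 4.44 FPKM after 6 weeks. In NSG hosts it had 4.82 FPKM in the library labelled NSG naive replicate 1, 5.56 and 7.83 FPKM in the other naive tumours, 3.06, 2.84, 3.39 and 2.12 FPKM after 2 weeks and 4.31, 2.83 and 3.34 FPKM after 6 weeks. In NSG hosts all treated libraries lay below all naive ones, and in hHGF-NSG hosts the groups overlapped through naive replicate 2.

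Averaged over hosts Fgf7 fell at 2 weeks to 2.41 FPKM, against 5.43 FPKM in naive tumours, a change of -0.89 ± 0.23 (SE, 8 and 6 libraries, limma adjusted p = 0.0130), and the change was -0.95 when the library labelled NSG naive replicate 1 was left out. Within single hosts it was -0.91 in hHGF-NSG hosts and -0.86 in NSG hosts, with limma adjusted p-values of 0.104 and 0.122. At 6 weeks the averaged change was -0.63 ± 0.25 and did not pass (limma adjusted p = 0.0630). It passed without hHGF-NSG naive replicate 2 (-0.84, adjusted p = 0.00972), without hHGF-NSG 6 weeks replicate 3 (-0.79, adjusted p = 0.0241) and by limma voom (-0.80, adjusted p = 0.0465). Fgf7 was counted on 5 to 63 reads per library.

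Fgf2 (ENSMUSG00000037225, mm10 chromosome 3, 37348346 to 37410108, plus strand), or basic FGF, averaged 5.91, 5.57 and 7.12 FPKM at naive, 2 weeks and 6 weeks in hHGF-NSG hosts and 5.05, 4.23 and 7.11 FPKM in NSG hosts. The 3 NSG 6-week libraries, at 6.57 to 7.76 FPKM, lay above the 3 NSG naive ones, at 4.49 to 5.82 FPKM, without passing the test (0.43, limma adjusted p = 0.330). Averaged over hosts the largest difference was between 6 and 2 weeks, at 0.52 ± 0.19 (limma adjusted p = 0.0854), which limma voom called at 0.60 (adjusted p = 0.0214). Nudt6, a gene on the opposite strand that overlaps Fgf2, averaged 1.11 FPKM. Whether counting used strand is not given in the sources used here.

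Pdgfc (ENSMUSG00000028019, mm10 chromosome 3, 81036416 to 81214040, plus strand) encodes PDGF-C, a ligand of the PDGF receptors on mesenchymal cells. In hHGF-NSG hosts it had 14.4, 13.9 and 16.2 FPKM in naive tumours, 10.1, 8.37, 7.88 and 8.62 FPKM after 2 weeks and 10.5, 9.79 and 9.03 FPKM after 6 weeks. In NSG hosts it had 12.1 FPKM in the library labelled NSG naive replicate 1, 11.1 and 9.35 FPKM in the other naive tumours, 7.65, 8.62, 7.80 and 9.63 FPKM after 2 weeks and 10.7, 8.70 and 11.8 FPKM after 6 weeks. The hHGF-NSG naive libraries lay above all treated ones of that host, whereas the NSG groups overlapped.

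Pdgfc fell at 2 weeks to 8.74 ± 0.957 FPKM in hHGF-NSG hosts, against 14.9 ± 1.20 FPKM in naive ones (SD, n = 4 and 3), a change of -0.71 ± 0.14 (SE, limma adjusted p = 0.00467). In NSG hosts the 2-week mean was 8.43 ± 0.910 FPKM, against 10.8 ± 1.37 FPKM, and the change of -0.33 ± 0.14 did not pass (limma adjusted p = 0.164). At 6 weeks the changes were -0.56 ± 0.15 in hHGF-NSG hosts (limma adjusted p = 0.0125) and -0.06 ± 0.15 in NSG hosts (limma adjusted p = 0.835). The 2-week fall averaged over hosts, -0.52 (limma adjusted p = 0.00115), held in every alternative run, and leaving out the library labelled NSG naive replicate 1 gave -0.48. The 6-week averaged fall of -0.31 (limma adjusted p = 0.0313) did not hold as well. It was lost with the replicate block (-0.30, adjusted p = 0.0608), without the library labelled NSG naive replicate 1 (-0.27, adjusted p = 0.0691), and likewise without NSG naive replicate 3, NSG 6 weeks replicate 2, in hHGF-NSG hosts naive replicate 3 or replicates 2 or 3 of the 6-week group, at -0.25 to -0.31 with adjusted p-values of 0.0557 to 0.0911. In hHGF-NSG hosts alone the 6-week call was lost without 6 weeks replicate 3 (-0.50, adjusted p = 0.0575).

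**Figure D3:**
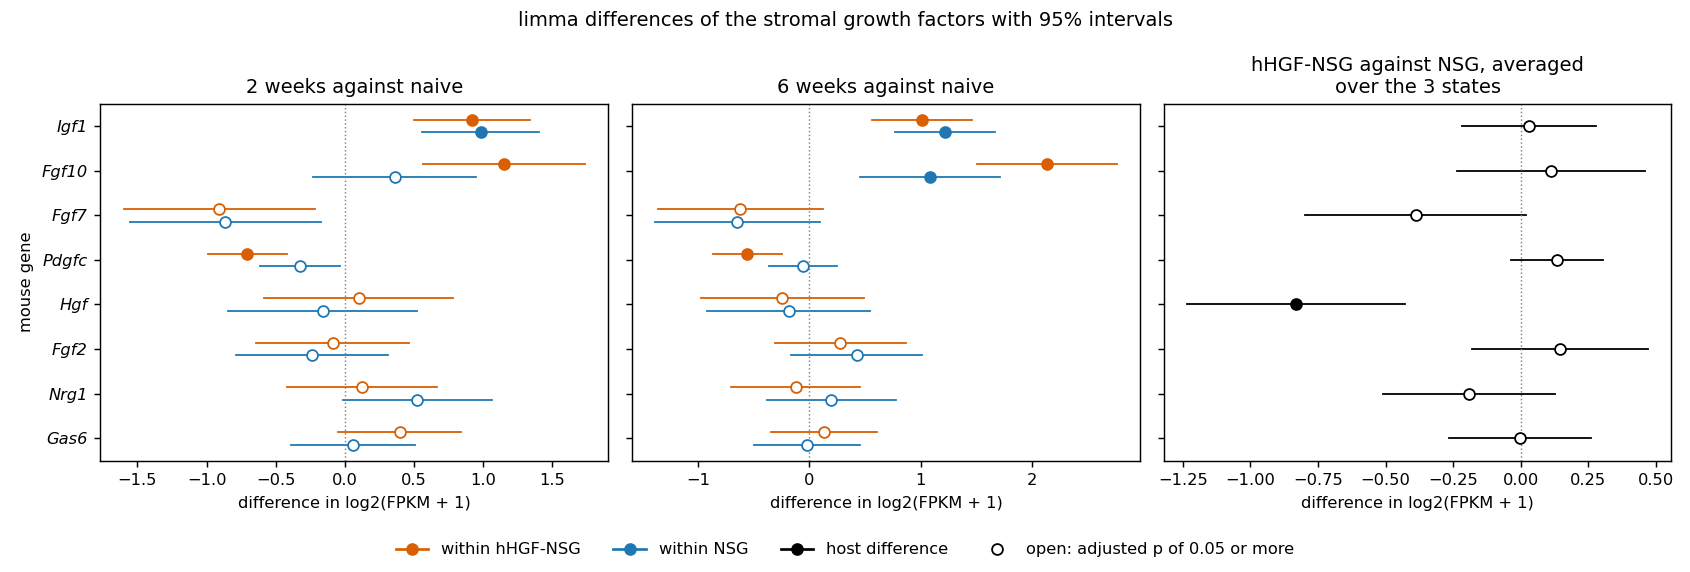
Differences in log2(FPKM + 1) (x axis) with 95% intervals for the 8 tested ligands (y axis) from limma, at 2 and 6 weeks against naive within each host and between hosts averaged over the 3 states. Filled points have an adjusted p below 0.05. Igf1 lies near 1 in both hosts, Fgf10 reaches 2.13 in hHGF-NSG hosts at 6 weeks, Pdgfc is at -0.71 in hHGF-NSG hosts at 2 weeks, and Hgf is the filled host difference at -0.83.

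Gas6 (ENSMUSG00000031451, mm10 chromosome 8, 13465374 to 13494490, minus strand) encodes the vitamin K-dependent ligand of the TAM receptors. It was the most abundant ligand, at 274 ± 61.0, 360 ± 68.3 and 299 ± 61.0 FPKM at naive, 2 weeks and 6 weeks in hHGF-NSG hosts and 308 ± 76.7, 319 ± 62.9 and 299 ± 37.5 FPKM in NSG hosts (SD, n = 3, 4 and 3). The groups overlapped in every comparison made. The averaged changes were 0.23 ± 0.15 at 2 weeks (95% interval -0.09 to 0.54) and 0.05 ± 0.16 at 6 weeks (-0.28 to 0.39), and the averaged host difference was -0.00246 ± 0.126 (-0.27 to 0.26). With 752 to 4510 reads per library Gas6 was the ligand counted most deeply. Tmem255b, which overlaps Gas6 on the opposite strand, averaged 5.08 FPKM.

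Nrg1 (ENSMUSG00000062991, mm10 chromosome 8, 31814551 to 32884029, minus strand) encodes neuregulin 1, the ligand through which ERBB3 pairs with ERBB2. It averaged 2.84 ± 0.823, 3.26 ± 1.38 and 2.57 ± 0.950 FPKM at naive, 2 weeks and 6 weeks in hHGF-NSG hosts and 2.77 ± 1.12, 4.27 ± 0.637 and 3.19 ± 0.258 FPKM in NSG hosts (SD, n = 3, 4 and 3). Among NSG groups the 2-week values, 3.63 to 4.93 FPKM, stood highest and only just reached into the naive ones, whose highest was 3.65 FPKM, with a change of 0.52 ± 0.26 that did not pass (limma adjusted p = 0.244). Averaged over hosts the changes were 0.32 at 2 weeks (limma adjusted p = 0.236) and 0.04 at 6 weeks (limma adjusted p = 0.907), and without the library labelled NSG naive replicate 1 they were 0.19 and -0.10.

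Areg (ENSMUSG00000029378, mm10 chromosome 5, 91139599 to 91148432, plus strand), the gene of amphiregulin, had 0 reads in all 20 mouse libraries. Each library allows up to 3 reads, for counting error only, so a difference was not detectable.

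A test of 2 host-by-treatment terms together (limma F-test) called 0 of the 8 ligands, where 0.021% of all genes tested were called and 779 passed at an unadjusted p below 0.05. The adjusted p-values were 0.922 to 0.999. Fgf10 and Pdgfc, each called at 2 weeks in hHGF-NSG hosts and not in NSG hosts, had unadjusted p-values of 0.0558 and 0.0639 and adjusted p-values of 0.922 each by limma, so their responses were not shown to differ between hosts.

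For each ligand the genes with the most similar pattern were ranked by Pearson's r of log2(FPKM + 1) over the 20 libraries, among protein-coding genes with a mean of at least 5 FPKM. Those nearest to Igf1 were Fbln7 (r = 0.956), a fibulin of the extracellular matrix, Ogn (0.942), the small matrix proteoglycan osteoglycin, and Paxx (0.932). Those nearest to Fgf10 were Sod1 (0.929), Pla2g16 (0.917), a phospholipase abundant in adipose tissue, and Idh3g (0.912), a subunit of mitochondrial isocitrate dehydrogenase. Nearest to Hgf was Dcaf5 (0.897), to Fgf2 Lrp6 (0.874), to Nrg1 Fam20a (0.872), to Pdgfc Arrdc3 (0.825), to Gas6 Jdp2 (0.768) and to Fgf7 Tgds (0.763). These values share libraries, depth and treatment state, and they describe likeness only.

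Markers of stromal cell types were read in the same libraries. At 6 weeks 9.67% of all genes tested were called higher in hHGF-NSG hosts and 8.81% in NSG hosts. All 8 adipocyte markers (Adipoq, Plin1, Fabp4, Lep, Cfd, Retn, Cidec and Lpl) were called higher at 6 weeks in each host. Their summed level was 772 to 2434 FPKM at naive, 1797 to 7260 FPKM at 2 weeks and 7253 to 13727 FPKM at 6 weeks in hHGF-NSG hosts, and 489 to 1905, 1156 to 2228 and 5157 to 6366 FPKM in NSG hosts. The sum was highest in the groups where Fgf10 was highest, and its part in the Fgf10 and Igf1 results was not tested. Of 10 fibroblast markers 2, Dcn and Dpt, were called higher and 1, Col1a1, lower at 6 weeks averaged over hosts. Among all genes tested 16.3% were called higher and 13.9% lower there, 30.2% in all, so the fibroblast count lay near that share. The fibroblast sums ran from 4598 to 14736 FPKM. They were lowest in hHGF-NSG tumours at 6 weeks (4598 to 5613) and highest in NSG tumours at 2 weeks (8901 to 14736). Averaged over hosts, 6 of 6 neutrophil, 4 of 6 endothelial and 5 of 6 pericyte and smooth muscle markers were called lower at 6 weeks. So were 5 of 8 macrophage markers, beside 13.9% of all genes tested. Endothelial markers summed to 172 to 185 FPKM at naive, 111 to 151 FPKM at 2 weeks and 108 to 126 FPKM at 6 weeks in hHGF-NSG hosts, and to 173 to 220.4, 93.1 to 131 and 81.3 to 98.5 FPKM in NSG hosts. Keratinocyte markers, 6 in the list and 2 tested, summed to 9.93 to 26.4 FPKM at naive, 2.16 to 4.05 FPKM at 2 weeks and 3.44 to 3.87 FPKM at 6 weeks in hHGF-NSG hosts, and to 9.75 to 23.5, 2.84 to 4.97 and 1.59 to 3.65 FPKM in NSG hosts. Krt14 was called lower at both times in each host, and Krt10 was called higher at 2 weeks in NSG hosts and averaged over hosts. Krt1 and Krt15 were at 0 in 5 of the 6 groups. The part of these cell types in the lower Pdgfc and Fgf7 values was not tested. Liver markers summed to at most 7.36 FPKM.

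Among 33 other receptor kinase ligands, listed as the wider pathway, 26 were tested, and averaged over hosts 3 were higher and 6 lower at 2 weeks, and 5 higher and 6 lower at 6 weeks, where 17.7% and 30.2% of all genes were called. Pgf, a VEGF-family ligand of FLT1, fell to 1.04 FPKM at 6 weeks, against 22.4 FPKM in naive tumours (-3.44 ± 0.32, limma adjusted p = 4.77e-07), and Angpt2, a TIE2 ligand, to 2.25 FPKM, against 9.81 FPKM (-1.76 ± 0.19, limma adjusted p = 2.48e-06). Hbegf, a ligand of EGFR and ERBB4, fell to 3.21 FPKM, against 14.2 FPKM (-1.87 ± 0.24, limma adjusted p = 1.30e-05). Nrg4, an ERBB4 ligand known in mice as a product of fat cells, rose to 7.55 FPKM, against 0.347 FPKM in naive tumours (2.68 ± 0.32, limma adjusted p = 4.75e-06). These 4 calls held in every alternative run.

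A further list held genes of proteins that cut, bind or hold these ligands. Of 25 such genes 20 were tested, and averaged over hosts 5 were higher and 7 lower at 2 weeks and 4 higher and 7 lower at 6 weeks, where 17.7% and 30.2% of all genes were called. Around the insulin-like growth factors, Igfals, the subunit that stabilises circulating IGF1 complexes, rose to 9.04 FPKM at 6 weeks, against 1.66 FPKM in naive tumours (2.03 ± 0.40, limma adjusted p = 0.000755). Igfbp6, a binding protein with a preference for IGF2, rose to 354 FPKM at 6 weeks, against 113 FPKM (1.66 ± 0.18, limma adjusted p = 2.21e-06). Around HGF, Plau, the protease urokinase, which can cut HGF into its active form, was the 1 gene of the list called between hosts, at 53.0 FPKM in hHGF-NSG hosts and 86.2 FPKM in NSG hosts averaged over the 3 states (-0.68 ± 0.12, limma adjusted p = 0.00414). Leaving out the library labelled NSG naive replicate 1 gave -0.77.

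The mouse receptors of the 10 ligands were read in the same table. Of 17 receptors 13 were tested, and at 6 weeks averaged over hosts, where 30.2% of all genes were called, Met and Fgfr2 were higher and Igf2r lower. Met rose to 3.75 FPKM, against 1.53 FPKM in naive tumours (0.92 ± 0.21, limma adjusted p = 0.00297), and Fgfr2 to 2.10 FPKM, against 0.873 FPKM (0.76 ± 0.17, limma adjusted p = 0.00251). Both calls held in every alternative run. Igf2r, which clears IGF2 from the cell surface, was at 8.08 FPKM, against 11.3 FPKM (-0.44 ± 0.15, limma adjusted p = 0.0342). Its call was lost without the filter (adjusted p = 0.0520), without NSG naive replicate 4 or replicate 3 of the 6-week NSG group, and in hHGF-NSG hosts without naive replicates 2 or 3 or replicates 1 or 3 of the 6-week group (-0.36 to -0.43, adjusted p = 0.0616 to 0.0951). The stroma held Axl at 76.1 FPKM, Pdgfrb at 63.3 FPKM and Fgfr1 at 43.9 FPKM on average over the 20 libraries, which were the highest of the receptors.

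On the tumour side, the human receptors of these ligands were read in the human table, with 3, 4 and 3 hHGF-NSG and 4, 4 and 4 NSG libraries and adjustment over 16029 genes. Of 17 receptors 13 were tested, and AXL, ERBB4, PDGFRA and PDGFRB did not pass the filter, with group means of at most 0.388, 0.870, 0.0101 and 0.00659 FPKM. In hHGF-NSG hosts 5 were higher and 7 lower at 2 weeks, and 6 higher and 6 lower at 6 weeks. In NSG hosts 6 were higher and 7 lower at each time. Over all human genes tested, 27.5% and 26.6% were called higher and lower at 2 weeks and 25.9% and 25.5% at 6 weeks in hHGF-NSG hosts, and 28.1% and 28% and then 28.8% and 28.8% in NSG hosts. In all, 54.1% and 51.3% were called at 2 and 6 weeks in hHGF-NSG hosts and 56.1% and 57.6% in NSG hosts. None of the 13 was called between hosts, where limma called 3, 0 and 0 of all human genes in the 3 states and 1427, 681 and 1946 passed at an unadjusted p below 0.05. The percentages of all genes called there were 0.0187% (0.0125% higher and 0.00624% lower), 0% and 0%.

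MET, the receptor of HGF, averaged 26.8 ± 2.13, 8.90 ± 0.652 and 11.8 ± 0.649 FPKM at naive, 2 weeks and 6 weeks in hHGF-NSG hosts and 25.3 ± 1.84, 10.4 ± 0.823 and 12.2 ± 1.91 FPKM in NSG hosts (SD). It fell at 6 weeks by 1.11 in hHGF-NSG hosts and by 1.00 in NSG hosts on the log2(FPKM + 1) scale (SE 0.11 and 0.09, limma adjusted p = 2.64e-08 and 1.10e-08). EGFR, the receptor of amphiregulin, fell by 1.27 and by 0.88 at 6 weeks in hHGF-NSG and NSG hosts (limma adjusted p = 6.91e-09 and 1.26e-07).

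ERBB2 and ERBB3, the receptor pair that answers neuregulin 1, rose. ERBB2 averaged 14.8 ± 3.88, 50.5 ± 3.01 and 53.1 ± 9.91 FPKM at naive, 2 weeks and 6 weeks in hHGF-NSG hosts and 16.7 ± 3.15, 50.1 ± 7.34 and 55.1 ± 6.91 FPKM in NSG hosts. ERBB3 averaged 26.5 ± 2.77, 40.4 ± 1.71 and 46.8 ± 5.97 FPKM in hHGF-NSG hosts and 31.8 ± 3.66, 43.0 ± 5.82 and 48.8 ± 4.90 FPKM in NSG hosts. At 6 weeks the changes were 1.78 and 1.68 for ERBB2 and 0.80 and 0.60 for ERBB3 in hHGF-NSG and NSG hosts, with limma adjusted p-values of at most 7.49e-05.

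FGFR2, the receptor of FGF7 and FGF10, was near 0 in naive tumour cells and rose. It averaged 0.142 ± 0.0734, 0.889 and 1.73 ± 0.0420 FPKM in hHGF-NSG hosts and 0.102 ± 0.0441, 0.998 and 1.71 ± 0.287 FPKM in NSG hosts. The 6-week changes were 1.26 and 1.29 (limma adjusted p = 1.51e-08 and 8.78e-10). FGFR1 and FGFR4 fell in both hosts at both times, by 0.73 to 1.23. FGFR3 fell at 2 weeks to 3.63 FPKM in hHGF-NSG hosts, against 11.3 FPKM in naive ones, and to 4.46 FPKM, against 9.99 FPKM, in NSG hosts (-1.37 and -1.01, limma adjusted p = 6.08e-06 and 8.28e-05). At 6 weeks FGFR3 was at -0.02 in hHGF-NSG hosts (limma adjusted p = 0.935) and at -0.47 in NSG hosts (limma adjusted p = 0.0348). The NSG call was lost without the filter, without the library labelled NSG naive replicate 1 (-0.47, adjusted p = 0.0567), and when naive replicate 3 or 4 or 6 weeks replicate 3 or 4 of that host was left out (-0.35 to -0.48, adjusted p = 0.0519 to 0.127). IGF2R, which binds IGF2 and clears it from the cell surface, fell at 6 weeks by 0.93 in hHGF-NSG hosts and by 0.55 in NSG hosts (limma adjusted p = 0.000457 and 0.00852).

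INSR, which pairs with IGF1R, averaged 0.883, 3.51 and 4.42 FPKM in hHGF-NSG hosts and 0.858, 3.71 and 5.34 FPKM in NSG hosts. It rose at 6 weeks by 1.53 and 1.77 (limma adjusted p = 7.17e-10 and 5.69e-12).

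IGF1R, the receptor of IGF1, averaged 6.99, 7.79 and 9.50 FPKM in hHGF-NSG hosts and 5.64, 7.44 and 9.69 FPKM in NSG hosts. At 6 weeks it rose by 0.39 in hHGF-NSG hosts (limma adjusted p = 0.0288) and by 0.69 in NSG hosts (limma adjusted p = 9.15e-05). The hHGF-NSG call was lost without the filter (adjusted p = 0.0592) and without hHGF-NSG naive replicates 1 or 2 or 6 weeks replicates 1 or 2, at 0.28 to 0.41 with adjusted p-values of 0.0525 to 0.147. Of the GAS6 receptors MERTK rose at 6 weeks by 0.99 and 1.20 and TYRO3 fell by 0.60 and 0.77 in hHGF-NSG and NSG hosts. Except for FGFR3 at 6 weeks, the NSG values of the receptors given here kept their direction and their call when the library labelled NSG naive replicate 1 was left out.

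**Figure D4:**
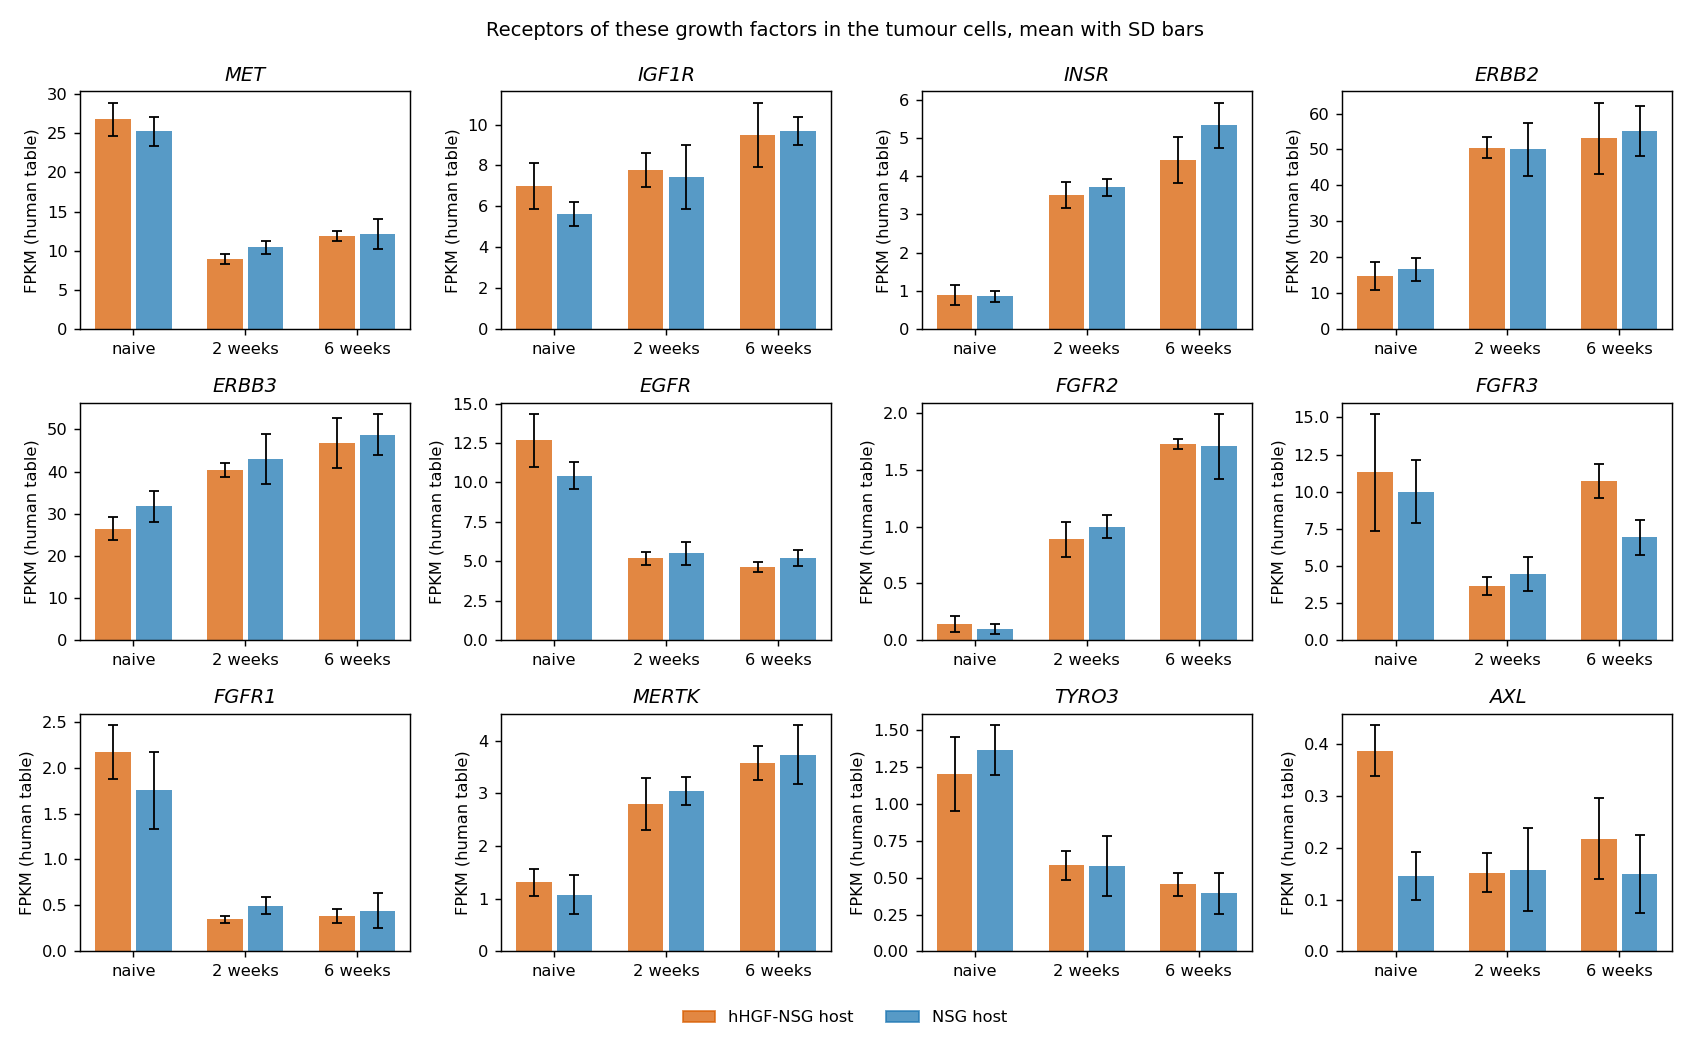
Mean FPKM of human receptors (y axis, linear from 0) at naive, 2 weeks and 6 weeks of alectinib (x axis), with hHGF-NSG bars left of NSG bars and SD error bars over 3 or 4 libraries. MET and EGFR are lower in treated tumours, and ERBB2, ERBB3, INSR and FGFR2 are higher, in both hosts.

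Among the human counterparts of the ligands, AREG and PDGFC were the ones with levels above 3 FPKM. AREG averaged 5.18 ± 0.532, 2.18 ± 1.01 and 1.25 ± 0.287 FPKM at naive, 2 weeks and 6 weeks in hHGF-NSG hosts and 5.36 ± 1.04, 1.40 ± 0.505 and 1.93 ± 1.31 FPKM in NSG hosts, so amphiregulin transcript was read in the human table and not in the mouse table. It fell at 6 weeks by 1.46 in hHGF-NSG hosts and by 1.20 in NSG hosts (limma adjusted p = 0.000261 and 0.000359). PDGFC averaged 17.7 ± 1.43, 8.69 ± 1.35 and 8.22 ± 1.20 FPKM in hHGF-NSG hosts and 19.7 ± 1.06, 8.85 ± 0.330 and 8.72 ± 1.12 FPKM in NSG hosts. It fell at 6 weeks by 1.03 and 1.09 (limma adjusted p = 3.48e-07 and 1.35e-08). GAS6 was the other human counterpart tested and was called at 2 weeks in hHGF-NSG hosts alone among these comparisons (-0.72, limma adjusted p = 0.0450), a call for which no alternatives were run. It averaged 2.51, 0.843 and 1.67 FPKM in hHGF-NSG hosts and 0.928, 0.877 and 0.861 FPKM in NSG hosts, with 0.633, 1.79 and 5.10 FPKM in the 3 hHGF-NSG naive libraries, so the groups overlapped. Human IGF1, FGF2, FGF7 and FGF10 were at most 0.175 FPKM in every library, and NRG1 averaged 0.302 FPKM or less in every group. The symbol IGF2 stands for 2 entries of the human table and was not used.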

How the data were processed

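RNA of 22 xenograft tumours was sequenced, and the authors deposited FPKM per gene in 1 table of human and 1 of mouse genes, per the file headers. The submitters' processing notes name GRCh38 (hg38), mm10 and DESeq2 without a role. Aligner, annotation, strand setting and the way human and mouse reads were told apart were not given in the sources used here. From FPKM and gene length, whole read numbers were worked back, and 100% of values came out whole within 0.05. Mouse libraries held 895826 to 5766509 reads, so low ligands rest on few reads, and a count of 0 allows 3.

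The tables were fitted separately with limma 3.58.1 in R 4.3.3 (1 mean per group, empirical Bayes with a trend) on log2(FPKM + 1), for genes at FPKM 1 or more in at least 3 samples, 14287 mouse and 16029 human. Tests were two-sided, Benjamini-Hochberg adjusted per comparison, threshold 0.05, with averaged comparisons weighting hosts or states equally. The fit was tested on simulated data. Alternatives were a pseudocount of 0.1, no filter, median-ratio rescaling, the replicate number as a block, limma voom on recovered reads (TMM scaling) and leaving out each library. Shares of reads have Wilson intervals. Python 3.11.15, numpy 2.4.6, pandas 2.3.3 and matplotlib 3.10.9 were used. No replicate pair agreed within counting noise (chi-square per degree of freedom at least 3.95).

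The members and lists were chosen with earlier results of these data known. All 10 ligands, their human counterparts and human receptors are named whatever their values where present, and up to 4 members of each other list per comparison, by largest change among those called.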

Additional observations from a re-analysis of the deposited data

Results flagged for a closer look

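Among 81 groups of 4 libraries screened for a library far from the others of its group, 5 were flagged, and chance flags about 1 in 20. The library labelled NSG naive replicate 1 had human HGF at 0.320 FPKM, while the other 3 of its group lay at 0 to 0.00610 FPKM. It also had the lowest INSR of its group, at 0.650 FPKM, with the others at 0.904 to 0.946 FPKM. NSG 6 weeks replicate 3 had human HGF at 0.0468 FPKM, on 6 reads, with the next at 0.00741 FPKM, and it had PDGFC at 10.4 FPKM, with the others at 8.05 to 8.27 FPKM. NSG 6 weeks replicate 4 had MET at 15.0 FPKM, with the others at 10.9 to 11.5 FPKM, below all 7 naive values of MET. All 5 values were from the human table. On the mouse side only the 2-week groups held 4 libraries. The mouse naive and 6-week groups were not screened, so no library of theirs could be flagged.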

How the results depend on the processing

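Counting every result under every alternative, single-gene values kept direction and side of the threshold in 3178 instances, lost their call in 59, gained it in 4 and changed sign in 29. These counts include median-ratio rescaling, which could hardly move a value. Its factors were 1.0057 to 1.0244 in the mouse libraries and 1.0078 in every human one. Without a filter, with a pseudocount of 0.1 and with the replicate number as a block, 0 ligands were called between hosts averaged over the 3 states in place of 1. By limma voom, 1 ligand in place of 2 was called at 6 weeks in NSG hosts and 2 in place of 1 between 6 and 2 weeks. Leaving out each library in turn gave 0 to 1 ligands called between hosts averaged over states, 1 to 4 at 2 weeks in hHGF-NSG hosts and 1 to 2 at 6 weeks in NSG hosts.

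Changes of sign were seen only in values far from the threshold. The averaged 2-week change of Hgf was -0.03, against 0.14 with a pseudocount of 0.1, 0.18 by limma voom and -0.25 to 0.10 with a library left out. The averaged host difference of Gas6 was 0.00731 by limma voom and -0.0584 to 0.0617 with a library left out, and its 6-week change was -0.0248 to 0.150. Leaving out a library gave -0.0341 to 0.118 for the host difference of Igf1, -0.0966 to 0.159 for the 6-week change of Nrg1 and -0.181 to 0.224 for human FGFR3 at 6 weeks in hHGF-NSG hosts.

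No sign of pairing by replicate number was seen. Of 43 pairs of mouse libraries with the same number, 1 had deviations correlated above 0.1, with a median of -0.00892. With unlike numbers it was 13 of 123 pairs, with a median of 0.00119. In the human libraries it was 8 of 51 pairs with the same number and 33 of 150 with unlike numbers. This check cannot show that the samples were unpaired. With the replicate block the averaged host difference of Hgf was -0.80 (adjusted p = 0.0645) and the averaged 6-week change of Pdgfc -0.30.

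Depth limits Hgf, Fgf7 and Fgf10 in naive tumours most, since they rest on 1 to 45 reads per library there. The causes of these shifts were not tested.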
